A study of Homo sapiens with 24 samples.

Results

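The 10 genes described here encode the ATF4-CHOP stress transcription factors and the proteins that act under them: ATF4, DDIT3 (which encodes CHOP), ATF3, CEBPB and ATF5, and the effectors PPP1R15A, TRIB3, CHAC1, DDIT4 and SESN2. They were taken by symbol from a list drawn up with earlier results of these data known, and each symbol had 1 row among the 48162 genes of the deposited tables. All 10 had a mean of at least 1 FPKM (reads scaled to gene length and library total) in both cell lines and were tested there. RNA-seq was done to see how vesicles of pancreatic cancer cells act on normal pancreas cells. The recipients were hTERT-HPNE (HPNE), a pancreas line immortalised with telomerase, and HPDE-H6c7 (HPDE), an immortalised line derived from duct epithelium of the pancreas. Each kind of cell is thus represented by 1 line. Both were grown in keratinocyte serum-free medium and given 1 of 4 treatments for 24 h: fresh serum-free medium (untreated), the residual medium left after vesicles had been isolated (the negative control), or 1e10 extracellular vesicles (EV) per well from PPCL-68 cells, which the series counts among pancreatic cancer cells, or from the pancreatic carcinoma line PANC-1. Each of the 8 groups had 3 libraries; the labels do not say whether these came from separate cultures, so the p-values measure the spread between these libraries, which may be technical.

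Cells answer several stresses with the same switch. Kinases that sense unfolded protein in the endoplasmic reticulum, lack of amino acids, viral RNA or lack of haem phosphorylate the translation factor eIF2alpha, which slows protein synthesis but lets ribosomes reach the coding sequence of ATF4. ATF4, alone or paired with C/EBP proteins, then activates genes for amino acid supply, redox defence and, under lasting stress, CHOP, which is linked to cell death. Because ATF4 is controlled mainly at translation, the level of its mRNA is not a measure of its protein, and no protein was analysed here.

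The libraries had 29874928 to 46490312 reads in genes in HPNE and 29209142 to 42206773 in HPDE. Each member had at least 151 reads in every library. The lines were told apart by their markers: EPCAM, an epithelial surface protein, had at most 12 reads in HPNE and 148 to 192 FPKM in HPDE, and KRT19, a duct keratin, had at most 0.905 FPKM in HPNE and 317 to 1140 FPKM in HPDE. HPNE therefore lacked defining duct markers. The summed level of the 6 duct markers also differed by treatment in HPDE, from 2763 to 3005 FPKM untreated and 3122 to 3498 FPKM in residual medium, down to 1431 to 1444 FPKM with PPCL-68 EV and 1549 to 1811 FPKM with PANC-1 EV; its part in the results was not tested. The 6 mesenchymal markers summed to 79.0 to 89.0 FPKM in untreated HPDE cells, 102.7 to 120.8 FPKM in residual medium, 132.5 to 152.3 FPKM with PPCL-68 EV and 94.3 to 105.5 FPKM with PANC-1 EV, against at least 8537 FPKM in every HPNE library. In HPNE that sum, in FPKM, was 11880 to 12560 in untreated cells and 9164 to 12380 in residual medium, and under vesicles it was 10370 to 12340 (PANC-1) and 8537 to 10450 (PPCL-68). TERT, the telomerase gene used to immortalise HPNE, was at 202 to 443 FPKM in HPNE residual medium and 114 to 200.1 FPKM in the other HPNE groups; the part of either in the HPNE results was not tested. Acinar, endocrine and leukocyte markers summed to at most 0.0266, 0.0427 and 0.0655 FPKM in any library. In bulk RNA, fewer cells that express a gene and less RNA per cell cannot be told apart.

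In HPNE, 1 library of each group stood apart from the other 2: untreated 3, residual medium 3, PANC-1 EV 1 and PPCL-68 EV 1. Over all tested genes its distance to them was 2.05 to 3.31 times the distance between those 2, against 1.08 to 1.24 times in HPDE. Residual medium library 3 was the highest of its group for 9 of the 10 genes, and untreated library 3 was the lowest of its group for 7. The HPNE results are therefore given with all libraries and, for the main comparisons, also with these 4 left out. Leaving out the library farthest from its group narrows the errors by construction, so the smaller p-values without them are not stronger evidence.

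The promoters were searched for response elements, and the 3 upstream windows with a match are shown because they carry the sequence through which ATF and C/EBP proteins are known to act. RefSeq (GRCh38.p14) listed 18 start sites for the 10 genes, and the search covered 250 bases before and 50 bases after each start on both strands. The core of the C/EBP-ATF response element (TGATGNAA, or its reverse complement) was present in 3.62% of all 35116 promoters and in those of 2 members, ATF3 and CHAC1. The cAMP response element (TGACGTCA, its own reverse complement) was present in 1.85% of promoters and in that of 1 member, PPP1R15A. The endoplasmic reticulum stress element was searched as an exact match only. An exact match was present in 0.0769% of promoters and in none of the 18 windows. The DDIT3 windows hold a stretch that differs from the searched letters only in the last base, so the search does not show that DDIT3 lacks the element. None of these motifs contains another. The 250 bases upstream of the start are printed 5′ to 3′ on the plus strand, with the match in capitals, at positions -209 to -202 for CHAC1 (the element read on the opposite strand), -191 to -184 for ATF3 and -58 to -51 for PPP1R15A. A match is a description of the letters and no evidence that a factor was bound.
CHAC1 (chr15:40953221-40953470): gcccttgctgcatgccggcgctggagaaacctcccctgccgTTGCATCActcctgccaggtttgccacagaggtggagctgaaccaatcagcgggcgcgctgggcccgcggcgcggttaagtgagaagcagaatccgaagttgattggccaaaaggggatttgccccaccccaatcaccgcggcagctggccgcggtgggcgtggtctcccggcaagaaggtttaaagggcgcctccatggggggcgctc
ATF3 (chr1:212565157-212565406): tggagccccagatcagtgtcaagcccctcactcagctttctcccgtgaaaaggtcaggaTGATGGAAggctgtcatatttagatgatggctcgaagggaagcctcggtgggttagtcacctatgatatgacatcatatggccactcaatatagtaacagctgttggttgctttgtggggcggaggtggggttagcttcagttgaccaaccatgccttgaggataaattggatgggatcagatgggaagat
PPP1R15A (chr19:48872171-48872420): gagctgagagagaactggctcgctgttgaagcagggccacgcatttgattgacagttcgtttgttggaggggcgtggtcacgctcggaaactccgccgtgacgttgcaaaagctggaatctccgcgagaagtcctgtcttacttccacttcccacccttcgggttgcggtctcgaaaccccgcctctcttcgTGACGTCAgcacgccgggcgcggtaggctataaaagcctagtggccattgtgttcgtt

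With vesicles from either source most of the 10 genes rose above residual medium in both lines, by 1.39-fold to 7.02-fold in mean FPKM for those that passed. With PANC-1 EV, 8 of 10 rose and 0 fell in HPNE, and 9 rose and 1, ATF5, fell in HPDE. With PPCL-68 EV, 9 of 10 rose and 0 fell in HPNE, and 9 rose and ATF5 fell in HPDE. A call here is a limma adjusted p under 0.05 (Benjamini-Hochberg over all genes tested). Among all 11503 genes tested in HPNE, 13.9% were called higher with PANC-1 EV (11.7% after scaling to size factors) and 20.3% with PPCL-68 EV. Among the 12223 genes tested in HPDE, 28.2% were higher and 35.1% lower with PANC-1 EV, and 31.3% were higher and 36.4% lower with PPCL-68 EV. The median log2 difference of the 10 genes was 1.62 (PANC-1) and 1.96 (PPCL-68) for HPNE, beside all-gene medians of 0.02 and 0.00. For HPDE it was 1.44 and 1.52, beside -0.04 and -0.03. Without the 4 HPNE libraries, 9 rose and ATF5 fell in HPNE with each source, where 28.2% of all genes were higher with either. Both sources were compared with the same residual medium libraries.

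**Figure D1:**
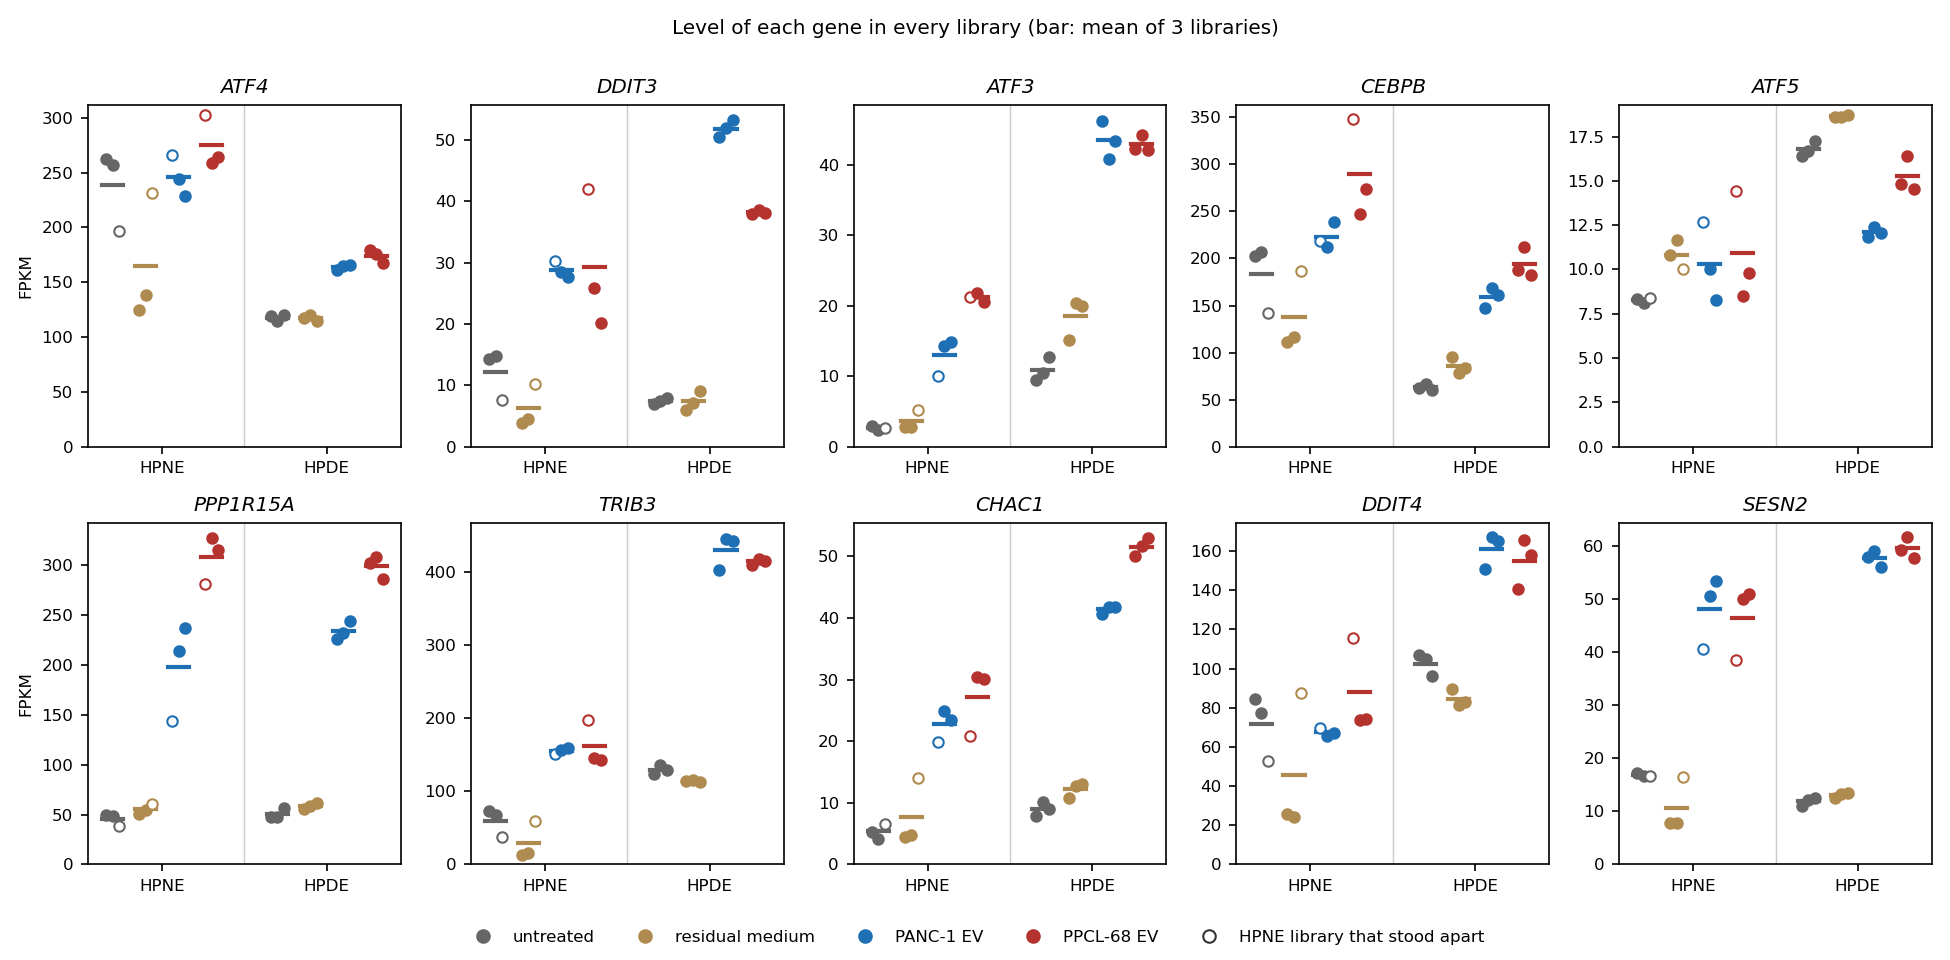
FPKM of each of the 10 genes in all 24 libraries, on an axis from 0; points are libraries in the order of their replicate number, bars are means of 3, and open points are the HPNE libraries that stood apart. In HPDE the vesicle groups lie above both controls for every gene but ATF5, and in HPNE residual medium library 3 lies above its 2 fellows for 9 genes.

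ATF4 (chr22:39915700-39918691 in hg19, plus strand), the transcription factor of the switch itself, had abundant mRNA in both lines and one of the smallest changes. It was at 125, 138 and 231 FPKM in the HPNE residual medium libraries, 266, 244 and 228 FPKM with PANC-1 EV and 302, 259 and 264 FPKM with PPCL-68 EV. The PANC-1 EV range overlapped that of residual medium through library 3 only, and the PPCL-68 EV range did not overlap. The rise of ATF4 with PANC-1 EV was 1.5-fold, a log2 difference of 0.63 with a standard error (SE) of 0.20 (adjusted p = 0.0444), and that with PPCL-68 EV was 1.67-fold (0.79 ± 0.20, adjusted p = 0.0109). The PANC-1 EV call was lost in 13 of 20 alternatives (adjusted p up to 0.173), among them leaving out residual medium library 1 (0.173) or library 2 (0.154), and was kept without the 4 libraries apart (0.84 ± 0.06, adjusted p = 1.33e-06). Untreated HPNE cells had 262, 257 and 197 FPKM, which overlapped both vesicle groups (adjusted p = 0.874 for PANC-1 EV and 0.426 for PPCL-68 EV). In HPDE, untreated cells had 119, 114 and 119.7 FPKM and residual medium cells 117, 120.4 and 115 FPKM, ranges that overlapped. Vesicle-treated HPDE cells had 161, 165 and 166 FPKM with PANC-1 EV and 179, 175 and 167 FPKM with PPCL-68 EV, all above both controls. The rise over residual medium was 1.39-fold (0.48 ± 0.04, adjusted p = 1.92e-07) and 1.48-fold (0.56 ± 0.04, adjusted p = 2.11e-08). The 4 ATF4 pseudogenes in the tables had at most 9 reads in any library.

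DDIT3, the gene for CHOP, lies at chr12:57910371-57914300 (hg19) on the minus strand and overlaps MARS on the other strand. The library kit kept no strand, so reads in the overlap cannot be assigned to one gene by strand. In HPDE with PANC-1 EV it had the largest change of the 10 from residual medium, by fold and on the log2 scale; with PPCL-68 EV it led by the fold of mean FPKM, and PPP1R15A on the log2 scale. HPDE libraries had 6.91, 7.43 and 7.98 FPKM untreated and 6.03, 7.16 and 8.99 FPKM in residual medium. PANC-1 EV gave 50.5, 52.0 and 53.2 FPKM and PPCL-68 EV 37.9, 38.6 and 38.1 FPKM. No vesicle library came near a control library. DDIT3 rose 7.02-fold over residual medium with PANC-1 EV (2.67 ± 0.09, adjusted p = 1.75e-11) and 5.17-fold with PPCL-68 EV (2.24 ± 0.09, adjusted p = 6.1e-11). In HPNE it was at 14.3, 14.8 and 7.62 FPKM untreated and 3.905, 4.43 and 10.3 FPKM in residual medium, where library 3 of each group departed from the other 2 in opposite directions. It reached 30.3, 28.5 and 27.7 FPKM with PANC-1 EV and 42.0, 25.9 and 20.2 FPKM with PPCL-68 EV. Both vesicle groups lay above both controls. The rise over residual medium was 4.64-fold with PANC-1 EV (2.15 ± 0.34, adjusted p = 0.00193; without the libraries apart 2.49 ± 0.10, adjusted p = 4.91e-08) and 4.73-fold with PPCL-68 EV (2.12 ± 0.34, adjusted p = 0.000906; 2.21 ± 0.10, adjusted p = 5.39e-08 without them).

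ATF3 (chr1:212738676-212794119 in hg19, plus strand), a stress-induced factor of the same family that forms dimers with its relatives, was the lowest of the 10 in untreated HPNE cells. Its level there was 2.94, 2.28 and 2.60 FPKM, and 2.76, 2.77 and 5.25 FPKM in residual medium. PANC-1 EV gave 10.03, 14.2 and 14.8 FPKM and PPCL-68 EV 21.2, 21.8 and 20.5 FPKM. The 4 groups of HPNE lay in that order, with no overlap from residual medium upwards. ATF3 rose 3.62-fold over residual medium with PANC-1 EV (1.63 ± 0.19, adjusted p = 0.000456; 2.04 ± 0.09, adjusted p = 6.82e-08 without the libraries apart) and 5.89-fold with PPCL-68 EV (2.31 ± 0.19, adjusted p = 3.14e-05; 2.56 ± 0.09, adjusted p = 1.05e-08). HPDE cells started higher, at 9.38, 10.4 and 12.7 FPKM untreated and 15.2, 20.4 and 19.9 FPKM in residual medium. With vesicles they had 46.2, 40.8 and 43.3 FPKM (PANC-1) and 42.2, 44.2 and 42.1 FPKM (PPCL-68), ranges that overlapped each other and no control. The HPDE rise over residual medium was 2.35-fold (1.20 ± 0.10, adjusted p = 2.16e-07) and 2.32-fold (1.18 ± 0.10, adjusted p = 1.56e-07).

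CEBPB (chr20:48807376-48809212 in hg19, plus strand), a C/EBP factor with which ATF4 can pair, was at 62.6, 66.6 and 60.6 FPKM in untreated HPDE cells and 95.1, 78.3 and 83.9 FPKM in residual medium. It was at 148, 169 and 161 FPKM with PANC-1 EV and 187, 213 and 182 FPKM with PPCL-68 EV. The 4 groups did not overlap. CEBPB rose over residual medium 1.86-fold with PANC-1 EV (0.89 ± 0.07, adjusted p = 1.64e-07) and 2.26-fold with PPCL-68 EV (1.17 ± 0.07, adjusted p = 5.36e-09). HPNE libraries had 202, 207 and 142 FPKM untreated, 111, 117 and 187 FPKM in residual medium, 219, 212 and 238 FPKM with PANC-1 EV and 349, 248 and 274 FPKM with PPCL-68 EV. All vesicle libraries were above all control libraries. The HPNE rise over residual medium was 1.62-fold (0.73 ± 0.21, adjusted p = 0.0292) and 2.1-fold (1.09 ± 0.21, adjusted p = 0.00244). Without the libraries apart it was 0.97 ± 0.07 (adjusted p = 1.35e-06) and 1.19 ± 0.07 (adjusted p = 2.38e-07). The PANC-1 EV call was lost in 7 of 20 alternatives (adjusted p up to 0.118), among them leaving out PANC-1 EV library 1 (0.0604), 2 (0.0627) or 3 (0.0813) and residual medium library 1 (0.118) or 2 (0.112).

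ATF5 (chr19:50431959-50437192 in hg19, plus strand), a relative of ATF4 whose translation is controlled in a like way, was the exception. HPDE cells had 16.4, 16.7 and 17.3 FPKM untreated, 18.6, 18.6 and 18.7 FPKM in residual medium, 11.8, 12.4 and 12.1 FPKM with PANC-1 EV and 14.8, 16.4 and 14.5 FPKM with PPCL-68 EV. PANC-1 EV was the lowest group and residual medium the highest, while the highest PPCL-68 EV library and the lowest untreated library differed by less than the rounding. ATF5 fell by 0.59 ± 0.05 on the log2 scale against residual medium with PANC-1 EV (adjusted p = 1.35e-07) and by 0.28 ± 0.05 with PPCL-68 EV (adjusted p = 0.000147). HPNE cells had 8.33, 8.08 and 8.39 FPKM untreated, 10.8, 11.7 and 10.01 FPKM in residual medium, 12.7, 10.03 and 8.27 FPKM with PANC-1 EV and 14.4, 8.49 and 9.80 FPKM with PPCL-68 EV. Here the vesicle ranges overlapped that of residual medium, with adjusted p = 0.764 and 0.939. Without the 4 libraries apart ATF5 was lower than in residual medium with each source in HPNE too (-0.27 ± 0.09 in both, adjusted p = 0.0279 and 0.0258). The gene overlaps IL4I1 and NUP62 on the opposite strand, whose reads the kit could not separate by strand.

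Of the effectors, PPP1R15A (chr19:49375649-49379314 in hg19, plus strand) encodes GADD34, which brings a phosphatase to eIF2alpha and so ends the block on translation. Untreated HPNE cells had 49.6, 48.9 and 38.6 FPKM and residual medium cells 50.7, 54.6 and 61.1 FPKM. PANC-1 EV gave 144, 214 and 237 FPKM and PPCL-68 EV 281, 328 and 316 FPKM. The PANC-1 EV library apart was the lowest of its group, and no group overlapped another. The rise over residual medium was 3.58-fold with PANC-1 EV (1.79 ± 0.17, adjusted p = 0.0002; 2.08 ± 0.06, adjusted p = 1.1e-08 without the libraries apart) and 5.56-fold with PPCL-68 EV (2.46 ± 0.17, adjusted p = 1.32e-05; 2.59 ± 0.06, adjusted p = 2.11e-09). In HPDE its levels were 47.3, 48.1 and 56.7 FPKM untreated, 55.6, 58.1 and 61.8 FPKM in residual medium, 227, 232 and 244 FPKM with PANC-1 EV and 302, 309 and 286 FPKM with PPCL-68 EV. Only the controls overlapped. It rose 4.01-fold (1.98 ± 0.06, adjusted p = 1.28e-11) and 5.11-fold (2.33 ± 0.06, adjusted p = 2.13e-12).

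TRIB3 (chr20:361261-378203 in hg19, plus strand), a pseudokinase that ATF4 and CHOP induce and that restrains them, had the largest difference of the 10 from HPNE residual medium on the log2(FPKM + 1) scale. By the fold of mean FPKM it led with PANC-1 EV, while with PPCL-68 EV ATF3 and PPP1R15A were slightly ahead. Residual medium libraries had 13.2, 15.3 and 59.4 FPKM, a spread in which library 3 was about as high as the untreated libraries at 73.2, 67.6 and 37.7 FPKM. With PANC-1 EV it was at 151, 156 and 159 FPKM and with PPCL-68 EV at 198, 145 and 143 FPKM, above every control library. TRIB3 rose 5.3-fold over residual medium with PANC-1 EV (2.70 ± 0.45, adjusted p = 0.00247) and 5.53-fold with PPCL-68 EV (2.74 ± 0.45, adjusted p = 0.00102). Without the libraries apart the differences were 3.38 ± 0.07 (adjusted p = 1.41e-09) and 3.25 ± 0.07 (adjusted p = 1.55e-09). In HPDE, TRIB3 was at 124, 136 and 129.9 FPKM untreated, 114, 115 and 113 FPKM in residual medium, 403, 446 and 443 FPKM with PANC-1 EV and 411, 419 and 416 FPKM with PPCL-68 EV. The 2 vesicle groups overlapped each other and stood far above the controls. The rise was 3.78-fold (1.91 ± 0.05, adjusted p = 1.78e-12) and 3.64-fold (1.86 ± 0.05, adjusted p = 8.68e-13).

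CHAC1 (chr15:41245160-41248710 in hg19, plus strand), an enzyme that degrades glutathione, was at 5.31, 4.19 and 6.59 FPKM in untreated HPNE cells and 4.43, 4.85 and 14.1 FPKM in residual medium, where library 3 was again high. PANC-1 EV gave 19.8, 24.9 and 23.4 FPKM and PPCL-68 EV 20.9, 30.5 and 30.0 FPKM, all above the controls. CHAC1 rose 2.92-fold over residual medium with PANC-1 EV (1.60 ± 0.33, adjusted p = 0.00656; 2.16 ± 0.09, adjusted p = 5.54e-08 without the libraries apart) and 3.49-fold with PPCL-68 EV (1.83 ± 0.33, adjusted p = 0.0016; 2.47 ± 0.09, adjusted p = 1.3e-08). HPDE cells had 7.85, 10.1 and 8.96 FPKM untreated, 10.7, 12.7 and 13.1 FPKM in residual medium, 40.7, 41.7 and 41.8 FPKM with PANC-1 EV and 50.1, 51.7 and 52.97 FPKM with PPCL-68 EV. These 4 groups lay in that order, from low to high, without overlap. The rise over residual medium was 3.4-fold (1.69 ± 0.08, adjusted p = 3.08e-10) and 4.24-fold (2.00 ± 0.08, adjusted p = 3.13e-11).

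DDIT4 (REDD1; chr10:74033678-74035794 in hg19, plus strand) and SESN2 (chr1:28586038-28609002, plus strand) encode inhibitors of mTORC1, the growth kinase complex. DDIT4 was at 25.9, 24.2 and 87.6 FPKM in HPNE residual medium libraries and at 84.3, 77.1 and 52.9 FPKM untreated. With PANC-1 EV it was at 69.5, 65.5 and 67.2 FPKM and with PPCL-68 EV at 116, 73.8 and 74.2 FPKM. Residual medium library 3 lay above all 3 PANC-1 EV libraries. Against residual medium DDIT4 did not pass with PANC-1 EV (adjusted p = 0.154) and rose 1.91-fold with PPCL-68 EV (1.15 ± 0.40, adjusted p = 0.039). Leaving out residual medium library 3 alone gave a call with PANC-1 EV (1.39, adjusted p = 0.000903), and leaving out all 4 libraries gave 1.37 ± 0.06 (adjusted p = 5.32e-08) and 1.53 ± 0.06 (adjusted p = 1.39e-08). The PPCL-68 EV call was lost in 11 of 20 alternatives (adjusted p up to 0.151), among them leaving out residual medium library 1 (0.147) or 2 (0.151) or PPCL-68 EV library 1 (0.124). In HPDE, DDIT4 was at 107, 105 and 96.0 FPKM untreated, 89.6, 81.2 and 83.1 FPKM in residual medium, 151, 167 and 165 FPKM with PANC-1 EV and 140.5, 165 and 158 FPKM with PPCL-68 EV. The vesicle groups lay above both controls, and the rise over residual medium was 1.9-fold (0.92 ± 0.06, adjusted p = 2.69e-08) and 1.83-fold (0.86 ± 0.06, adjusted p = 3.15e-08).

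SESN2, which encodes a sestrin, rose in both lines with both sources. It was at 17.2, 16.7 and 16.7 FPKM in untreated HPNE cells and 7.84, 7.73 and 16.5 FPKM in residual medium. Vesicles gave 40.6, 50.7 and 53.4 FPKM (PANC-1) and 38.5, 50.0 and 51.0 FPKM (PPCL-68), well above the controls. The rise over residual medium was 4.51-fold with PANC-1 EV (2.15 ± 0.23, adjusted p = 0.00031; 2.59 ± 0.05, adjusted p = 1.41e-09 without the libraries apart) and 4.36-fold with PPCL-68 EV (2.09 ± 0.23, adjusted p = 0.000109; 2.55 ± 0.05, adjusted p = 1.53e-09). HPDE levels were 11.1, 12.2 and 12.6 FPKM untreated, 12.6, 13.2 and 13.5 FPKM in residual medium, 57.9, 59.0 and 56.1 FPKM with PANC-1 EV and 59.3, 61.6 and 57.7 FPKM with PPCL-68 EV. The 2 vesicle groups overlapped each other and lay far above the controls. SESN2 rose 4.4-fold (2.06 ± 0.05, adjusted p = 1.78e-12) and 4.55-fold (2.10 ± 0.05, adjusted p = 7.33e-13) in HPDE.

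**Figure D2:**
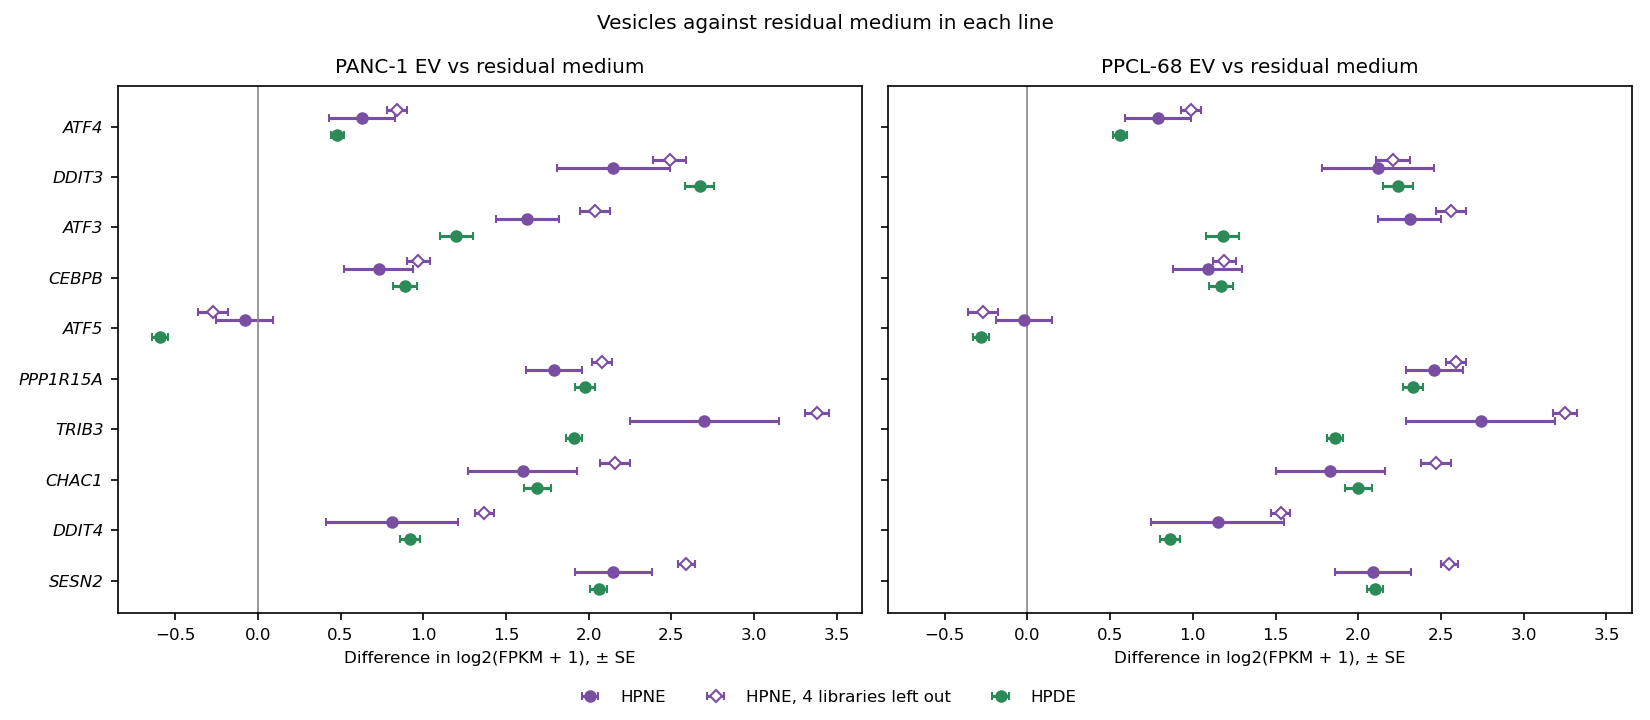
Difference in log2(FPKM + 1) ± SE between each vesicle group and residual medium for the 10 genes; filled circles use all 12 libraries of a line and open diamonds leave out the 4 HPNE libraries apart. All genes but ATF5 lie to the right of 0, TRIB3 is the farthest from residual medium in HPNE (2.70 and 2.74) and DDIT3 in HPDE with PANC-1 EV (2.67).

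Set against untreated cells in place of residual medium, fewer genes rose in HPNE and the same number in HPDE. With PANC-1 EV 6 of 10 rose in HPNE and 0 fell, beside 9.61% of all genes called higher (13.1% after scaling to size factors); with PPCL-68 EV 7 rose and 0 fell, beside 18.7% (24.6%). The genes that rose with both were DDIT3, ATF3, TRIB3, CHAC1, SESN2 and PPP1R15A, and CEBPB joined them with PPCL-68 EV (1.58-fold, 0.66 ± 0.21, adjusted p = 0.0258). On the log2(FPKM + 1) scale PPP1R15A had the largest difference with each source, 4.34-fold with PANC-1 EV (2.07 ± 0.17, adjusted p = 4.02e-05) and 6.74-fold with PPCL-68 EV (2.73 ± 0.17, adjusted p = 2.1e-06). By the fold of mean FPKM ATF3 was ahead of it, at 5-fold and 8.12-fold. TRIB3 with PANC-1 EV was 2.61-fold higher (1.43 ± 0.45, adjusted p = 0.0439), a call that 11 of 20 alternatives lost (adjusted p up to 0.123). The DDIT3 call with PANC-1 EV (1.22 ± 0.34, adjusted p = 0.0271) was lost without any single library of the 2 groups (adjusted p from 0.0503 to 0.0791). With PPCL-68 EV, leaving out untreated library 3 or PPCL-68 EV library 1 left 4 of the 7 calls, the DDIT3, TRIB3 and CEBPB ones being lost. Without the 4 libraries apart, DDIT3 was higher than untreated by less than with all libraries, both for PANC-1 EV (0.90 ± 0.10, adjusted p = 3.04e-05) and for PPCL-68 EV (0.62 ± 0.10, adjusted p = 0.000288). The same held for TRIB3 (1.15 ± 0.07, adjusted p = 4.52e-07, and 1.02 ± 0.07, adjusted p = 5.61e-07). DDIT4, which had not passed, was then lower with PANC-1 EV (-0.28 ± 0.06, adjusted p = 0.00157). PPP1R15A was then at 2.17 ± 0.06, adjusted p = 3.76e-09 with PANC-1 EV, and 2.68 ± 0.06, adjusted p = 5.72e-10 with PPCL-68 EV. In HPDE 9 rose and ATF5 fell with each source, where 26.3% of all genes were higher and 34.4% lower with PANC-1 EV, and 30.1% higher and 36.1% lower with PPCL-68 EV. The largest HPDE differences were those of DDIT3 with PANC-1 EV (6.98-fold, 2.65 ± 0.09, adjusted p = 1.07e-11) and PPP1R15A with PPCL-68 EV (5.9-fold, 2.54 ± 0.06, adjusted p = 4.6e-13). The fall of ATF5 against untreated cells was firm with PANC-1 EV (-0.44 ± 0.05, adjusted p = 2.19e-06) and slight with PPCL-68 EV (-0.13 ± 0.05, adjusted p = 0.0263, lost in 8 of 19 alternatives, with adjusted p up to 0.124). These comparisons use the same vesicle libraries as those with residual medium.

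The 2 controls differed from each other, and not alike in the 2 lines. In HPNE residual medium 4 of the 10 genes fell against untreated cells and 0 rose: ATF4 (0.689 times, -0.58 ± 0.20, adjusted p = 0.0392), DDIT3 (0.508 times, -0.93 ± 0.34, adjusted p = 0.045), TRIB3 (0.492 times, -1.27 ± 0.45, adjusted p = 0.0394) and SESN2 (0.633 times, -0.69 ± 0.23, adjusted p = 0.0313). Of these 4, only SESN2 had ranges that did not overlap, and narrowly (at most 16.47 FPKM against at least 16.68 FPKM untreated). The ranges of ATF5 and PPP1R15A, which were not called, lay wholly above untreated. ATF5 had 10.01 to 11.66 FPKM against 8.08 to 8.39 FPKM, and PPP1R15A 50.68 to 61.07 FPKM against 38.65 to 49.65 FPKM. The share of all genes with ranges apart was not counted. Of all genes, 25.2% were called lower and 18.7% higher. These calls depended on the scaling, since size factors, which moved the all-gene median by 0.11, turned the split to 18.1% lower and 28.9% higher, left none of the 4 calls and gave 1 for ATF5 (0.47, adjusted p = 0.0291). They also depended on the libraries apart: without them 6 fell and ATF5 rose, where 36.2% of all genes were lower, and the differences grew to -2.23 ± 0.07 for TRIB3 (adjusted p = 2.39e-09) and -1.65 ± 0.06 for DDIT4 (adjusted p = 4.47e-09). Leaving out any 1 of untreated 1, untreated 2, residual medium 1 and residual medium 2 removed all 4 calls, leaving out PANC-1 EV 2 or PPCL-68 EV 2 left 1, and leaving out PANC-1 EV 3 or PPCL-68 EV 3 left 2. In HPDE residual medium 5 rose and 2 fell, beside 9.93% of all genes higher and 10.1% lower. ATF3 rose 1.71-fold (0.72 ± 0.10, adjusted p = 0.000295), CEBPB 1.36-fold (0.43 ± 0.07, adjusted p = 0.00132) and CHAC1 1.36-fold (0.40 ± 0.08, adjusted p = 0.00244). PPP1R15A (1.15-fold, adjusted p = 0.0359) and ATF5 (1.11-fold, adjusted p = 0.0493) passed narrowly, and ATF5 lost its call without any 1 library of the 2 groups (adjusted p from 0.0692 to 0.152). DDIT4 fell to 0.825 times (-0.27 ± 0.06, adjusted p = 0.0096) and TRIB3 to 0.879 times (-0.18 ± 0.05, adjusted p = 0.0157). The TRIB3 call was lost without untreated library 2 (0.0717) or residual medium library 3 (0.0523). The difference between the lines in this shift was itself called for 3 genes, CEBPB (0.86 ± 0.23, adjusted p = 0.00792), SESN2 (0.82 ± 0.25, adjusted p = 0.0144) and ATF4 (0.57 ± 0.21, adjusted p = 0.0396), where 38.1% of all genes were called. The ATF4 call was kept in 18 of 31 alternatives (adjusted p up to 0.132) and lost with size factors, no filter or the replicate number as a block (0.0517). It was also lost on leaving out any 1 of untreated libraries 1 and 2 or residual medium libraries 1 and 2 of HPNE (0.0964 to 0.132), or any 1 untreated or residual medium library of HPDE (0.0576 to 0.0736). The SESN2 call was lost without HPNE residual medium library 2 (0.0504). Without the libraries apart it was called for 9, where 64.5% of all genes were.

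**Figure D3:**
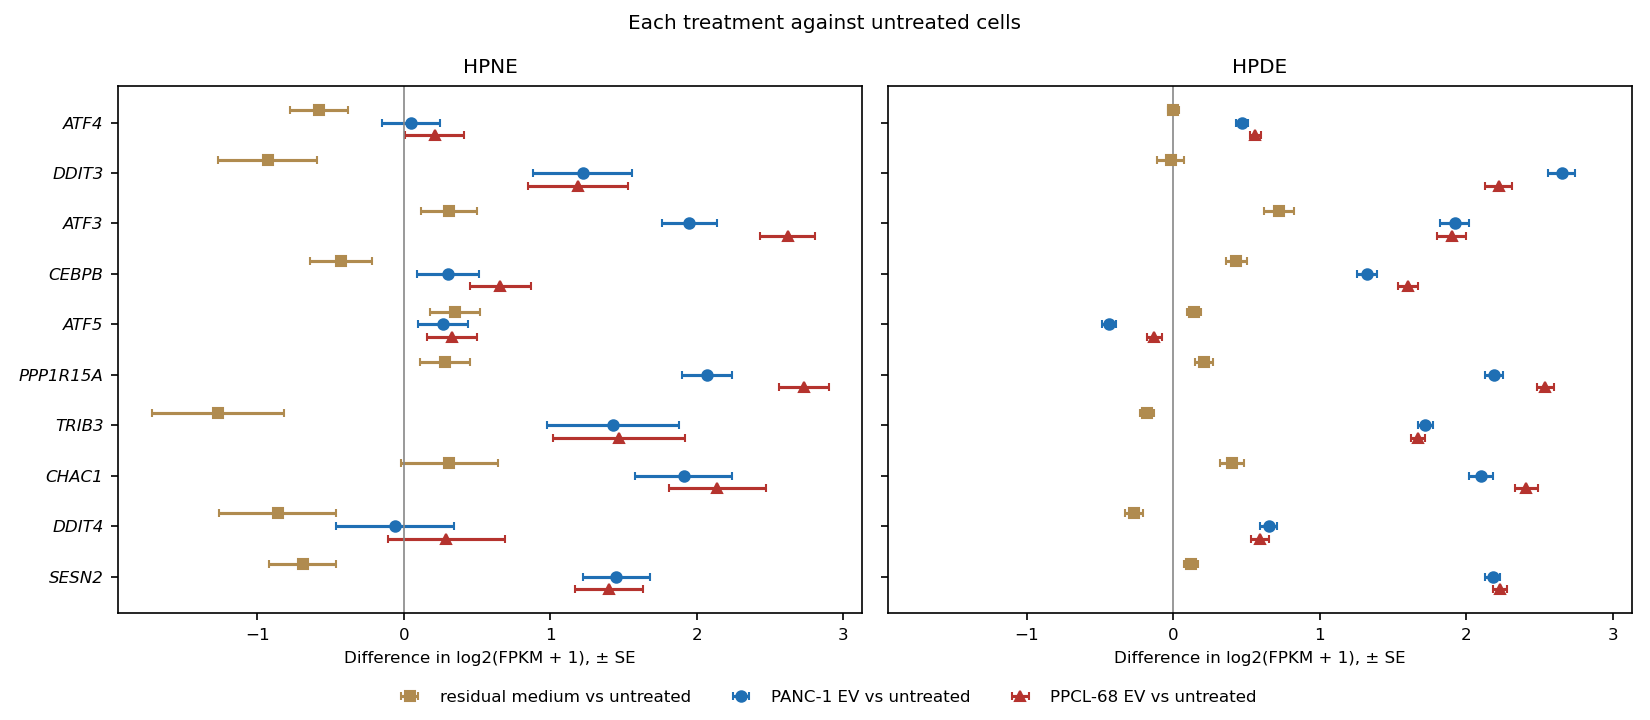
Difference in log2(FPKM + 1) ± SE of residual medium and of each vesicle group from untreated cells, all libraries included. In HPNE residual medium lies below untreated for 6 genes, with TRIB3 at -1.27, while in HPDE it lies within 0.72 of untreated for all 10.

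The 2 vesicle sources were compared at the same number of vesicles per well and the same time. In HPDE 5 of the 10 genes differed: DDIT3 was higher with PANC-1 EV (1.36 times, 0.43 ± 0.09, adjusted p = 0.00136), and 4 were lower with PANC-1 EV than with PPCL-68 EV. These were ATF5 (0.793 times, -0.31 ± 0.05, adjusted p = 0.000117), PPP1R15A (0.784 times, -0.35 ± 0.06, adjusted p = 0.00046), CHAC1 (0.802 times, -0.31 ± 0.08, adjusted p = 0.00392) and CEBPB (0.82 times, -0.28 ± 0.07, adjusted p = 0.00594). The library ranges of these 5 did not overlap. Those of ATF4, which was not called (-0.09 ± 0.04, adjusted p = 0.0949), were apart as well. Its highest PANC-1 EV library was at 165.7 FPKM, below the lowest PPCL-68 EV library at 167.1 FPKM. How many of all genes had ranges apart was not counted, so ranges apart are no evidence beyond the calls. Of all genes, 25.2% were higher and 24.9% lower with PANC-1 EV, so 5 of 10 is the share that all genes gave. ATF3, TRIB3, DDIT4 and SESN2 overlapped between the sources in HPDE. In HPNE only PPP1R15A was called, 0.643 times as high with PANC-1 EV (-0.66 ± 0.17, adjusted p = 0.0485), where 2.25% of all genes were called lower. No label pairs the libraries of these 2 groups. Their same-numbered libraries deviated together (correlation 0.49), and library 1 stood apart in both groups. A limma fit of all HPNE groups blocked on the replicate number gave an adjusted p of 0.0569 for PPP1R15A. That fit is not a paired test of these 2 groups. The call was kept in 7 of 20 alternatives (adjusted p up to 0.171); leaving out PANC-1 EV library 1 or 2 gave 0.105 and 0.1, and PPCL-68 EV library 2 or 3 gave 0.171 and 0.143. Without the 4 libraries apart the difference was -0.51 ± 0.06 (adjusted p = 0.00018), and 5 of the 10 genes were called, where 36.4% of all genes were. In both lines PPP1R15A was thus lower with PANC-1 EV in every library. So was CEBPB, which was not called in HPNE with all libraries (adjusted p = 0.329). In HPNE only, the ranges of ATF3 and DDIT4 were also lower without a call.

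The response of the 10 genes to vesicles was compared between the lines by the interaction of line and treatment, in a fit of all 24 libraries and 10483 genes. With PANC-1 EV against residual medium, 0 of 10 differed between the lines by limma with all libraries, where 18.2% of all genes were called. At an unadjusted p under 0.05 the count was 1, ATF5 (-0.51 ± 0.18, adjusted p = 0.0607), and limma with library weights called 7, where it called 61% of all genes. With PPCL-68 EV 1 differed, ATF3, whose rise was smaller in HPDE (-1.13 ± 0.23, adjusted p = 0.00154), where 23% of all genes were called. Without the libraries apart 7 differed with each source, where 46.7% and 45% of all genes were called. Leaving out residual medium library 3 of HPNE alone gave the TRIB3 call with each source (-1.46, adjusted p = 0.000216, and -1.55, adjusted p = 8.87e-05). Without all 4, TRIB3 had the largest difference with each source, a smaller rise in HPDE (-1.48 ± 0.08, adjusted p = 8.65e-11, and -1.40 ± 0.08, adjusted p = 1.05e-10). ATF4, SESN2, CHAC1, DDIT4 and ATF3 were then also called with both sources, each with the smaller rise in HPDE. ATF5 was called with PANC-1 EV and PPP1R15A with PPCL-68 EV. DDIT3 and CEBPB were not called in either fit.

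The lines differed before any vesicle was added. Of the 10 genes, 4 were higher and 4 lower in untreated HPDE than in untreated HPNE cells, beside 55.4% and 26.2% of all genes. The median gene was higher by 0.34 (log2) in HPDE, and scaling to size factors moved it by -0.32 and the split of all genes to 41.1% and 38.5%, so values relative to the median gene are given here too. CEBPB was 0.344 times as high in HPDE (-1.51 ± 0.16, adjusted p = 4.24e-08; relative to the median gene -1.85) and ATF4 0.493 times (adjusted p = 3.76e-06; -1.35 relative to the median gene). SESN2 (0.708 times, adjusted p = 0.019) and DDIT3 (0.608 times, adjusted p = 0.0432) were also lower, the latter call being lost without any 1 of untreated HPNE libraries 1 (0.154) and 2 (0.169) and untreated HPDE libraries 1 (0.102), 2 (0.0782) and 3 (0.0585). ATF3 was 4.16-fold higher (1.71 ± 0.16, adjusted p = 6.28e-09; 1.36), TRIB3 2.18-fold (1.17 ± 0.34, adjusted p = 0.00354; 0.82) and ATF5 2.03-fold (0.94 ± 0.13, adjusted p = 1.26e-06; 0.60). CHAC1 was 1.67-fold higher (adjusted p = 0.0206), a call lost with size factors (0.34, adjusted p = 0.267). PPP1R15A and DDIT4 were not called.

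Other genes of the program were taken from lists written out with earlier results of these data known, so their direction is no independent support. Of 20 amino acid supply genes, 16 rose and 1 fell in HPNE with PANC-1 EV and 17 rose and 1 fell with PPCL-68 EV, and in HPDE 18 of 19 rose with each source. The highest was SLC7A11, the cystine importer, at 25.3 ± 9.80 FPKM with PANC-1 EV against 4.24 ± 2.20 FPKM (SD, n = 3) in HPNE residual medium (2.33 ± 0.32, adjusted p = 0.000881) and 33.9 ± 1.14 against 5.75 ± 0.473 FPKM in HPDE with PPCL-68 EV (2.37 ± 0.07, adjusted p = 4.82e-12). ALDH18A1, an enzyme of proline synthesis, was the one that fell in HPNE (-0.96 ± 0.09, adjusted p = 0.000204, and -1.06 ± 0.09, adjusted p = 4.24e-05). Of 13 genes for cytosolic tRNA charging, which include the tRNA exporter XPOT, 12 rose in HPNE with each source, and 13 and 12 rose in HPDE. AARS, the alanine enzyme, led in HPDE (1.30 ± 0.05, adjusted p = 4.29e-11, with PANC-1 EV). The list medians were 1.01 to 1.18 for amino acid supply and 0.69 to 0.84 for tRNA charging, beside all-gene medians between -0.04 and 0.02.

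Of 17 further stress targets of ATF4 and CHOP, 16 were tested in HPNE, where 10 and 13 rose and 1 fell (15 rose with each source without the 4 libraries apart), and 15 in HPDE, where 14 rose with each source. GDF15, a secreted stress cytokine, led in 3 of the 4 comparisons, from 9.33 to 53.9 FPKM in HPNE with PANC-1 EV (2.46 ± 0.27, adjusted p = 0.000356). MAP1LC3B, which encodes an autophagosome protein, led in HPDE with PPCL-68 EV, from 37.2 to 256 FPKM (2.75 ± 0.07, adjusted p = 7.33e-13). ERO1L, an oxidase of the endoplasmic reticulum, fell in HPNE (-0.91 ± 0.13, adjusted p = 0.00103, with PANC-1 EV). Among 12 family relatives of the members, 4 of the 8 tested rose in HPNE with each source, and 6 and 7 of the 10 tested rose in HPDE. CEBPG, a C/EBP partner of ATF4, rose from 15.2 to 40.6 FPKM in HPDE with PANC-1 EV (1.36 ± 0.04, adjusted p = 1.46e-11). CHAC2, the relative of CHAC1, was the lowest of the list everywhere and fell in HPDE (-0.74 ± 0.07, adjusted p = 3.05e-07, with PPCL-68 EV).

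Most genes upstream of ATF4 were not called in HPNE. In HPDE they moved in both directions with PANC-1 EV and mostly fell with PPCL-68 EV. Of 18 genes for the eIF2alpha kinases, eIF2, eIF2B and their regulators, 1 rose and 2 fell in HPNE with PANC-1 EV, 0 rose and 4 fell with PPCL-68 EV, and in HPDE 5 rose and 6 fell, and 1 rose and 13 fell. Among all genes of HPNE 10.3% fell with PANC-1 EV (16.1% after scaling to size factors) and 19.7% with PPCL-68 EV, so the HPNE counts were near the background. Among all genes of HPDE 28.2% rose and 35.1% fell with PANC-1 EV, and 31.3% rose and 36.4% fell with PPCL-68 EV. The listed gene that rose in HPDE with PPCL-68 EV was EIF2AK3, the gene for the kinase PERK, from 2.93 to 4.96 FPKM (0.60 ± 0.07, adjusted p = 2.82e-06). Chaperones of the other branches of the unfolded protein response split by source in HPDE: of 16, 6 rose and 7 fell with PANC-1 EV (median -0.10) and 13 rose and 1 fell with PPCL-68 EV (median 0.46). XBP1, the factor of one of those branches, was the highest of them in HPNE with each source (0.62 ± 0.11, adjusted p = 0.00301, and 0.92 ± 0.11, adjusted p = 0.000148). In HPNE 2 and 5 rose and 3 fell with each source. Between the 2 sources in HPDE, 15 of the 16 were lower with PANC-1 EV (median -0.62). Without the 4 HPNE libraries apart, 11 of the kinase and eIF2 list fell in HPNE with each source, and 10 and 9 of the chaperones did, where 30.8% (PANC-1) and 37.3% (PPCL-68) of all genes fell. Against untreated HPNE cells the chaperone counts differed: 11 of 16 rose in residual medium itself, and 2 and 8 rose and 0 fell with the vesicles. Of all HPNE genes 18.7% rose in residual medium. With PANC-1 EV 9.61% rose and 11.5% fell against untreated cells, and with PPCL-68 EV 18.7% rose and 23.8% fell. The 2 that rose with PANC-1 EV were thus near the background.

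Lists of other stress programs served for comparison. Against residual medium, 13.9% of all HPNE genes rose and 10.3% fell with PANC-1 EV, and 20.3% rose and 19.7% fell with PPCL-68 EV. Among all HPDE genes 28.2% rose and 35.1% fell with PANC-1 EV, and 31.3% rose and 36.4% fell with PPCL-68 EV. Against untreated HPNE cells, 9.61% of all genes rose and 11.5% fell with PANC-1 EV, and 18.7% rose and 23.8% fell with PPCL-68 EV. In HPNE residual medium 18.7% rose and 25.2% fell against untreated cells. Of 15 p53 targets 3 and 4 rose in HPNE against residual medium (against untreated cells 1 rose and 6 fell with each source), and 5 and 6 rose in HPDE with 3 and 4 lower. GADD45A, which is also a target of ATF4 and stands on 2 of the lists, was the highest of them in all 4 comparisons, up to 2.03 ± 0.22 (adjusted p = 0.000103) in HPNE with PPCL-68 EV. Of 11 hypoxia targets tested in HPNE, 0 rose and 6 fell with each source, and of 12 in HPDE 7 and 6 rose and 4 fell. The HPNE counts differed with the control: residual medium itself had 7 of the 11 higher and 0 lower than untreated cells, and against untreated cells 1 rose and 0 fell with PANC-1 EV, and 2 rose and 1 fell with PPCL-68 EV. Without the 4 HPNE libraries apart, 2 rose and 5 and 9 fell against untreated cells. Of all 11503 genes 3370 then rose and 3839 fell with PANC-1 EV, and 3553 rose and 4445 fell with PPCL-68 EV. The highest in HPDE with PANC-1 EV was VEGFA, from 21.3 to 62.5 FPKM (1.52 ± 0.08, adjusted p = 1.83e-09). With PPCL-68 EV it was NDRG1, from 25.4 to 68.0 FPKM (1.39 ± 0.08, adjusted p = 2.69e-09). VEGFA also stands on the list of further ATF4 and CHOP targets. The lowest in HPDE was LDHA, lactate dehydrogenase, which fell from 704.7 to 369 FPKM with PPCL-68 EV (-0.93 ± 0.04, adjusted p = 1.99e-10). DDIT4 is itself a hypoxia target and was counted among the members. Of the immediate-early genes 3 and 2 of 10 rose in HPNE, and 5 and 7 of 11 rose in HPDE with 3 lower. Without the 4 HPNE libraries apart the p53 counts in HPNE against residual medium were 7 and 8 higher with 2 and 4 lower. The immediate-early counts were then 7 and 3 higher with 2 lower. Of all genes 28.2% were then higher with each source, and 30.8% (PANC-1) and 37.3% (PPCL-68) lower.

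**Figure D4:**
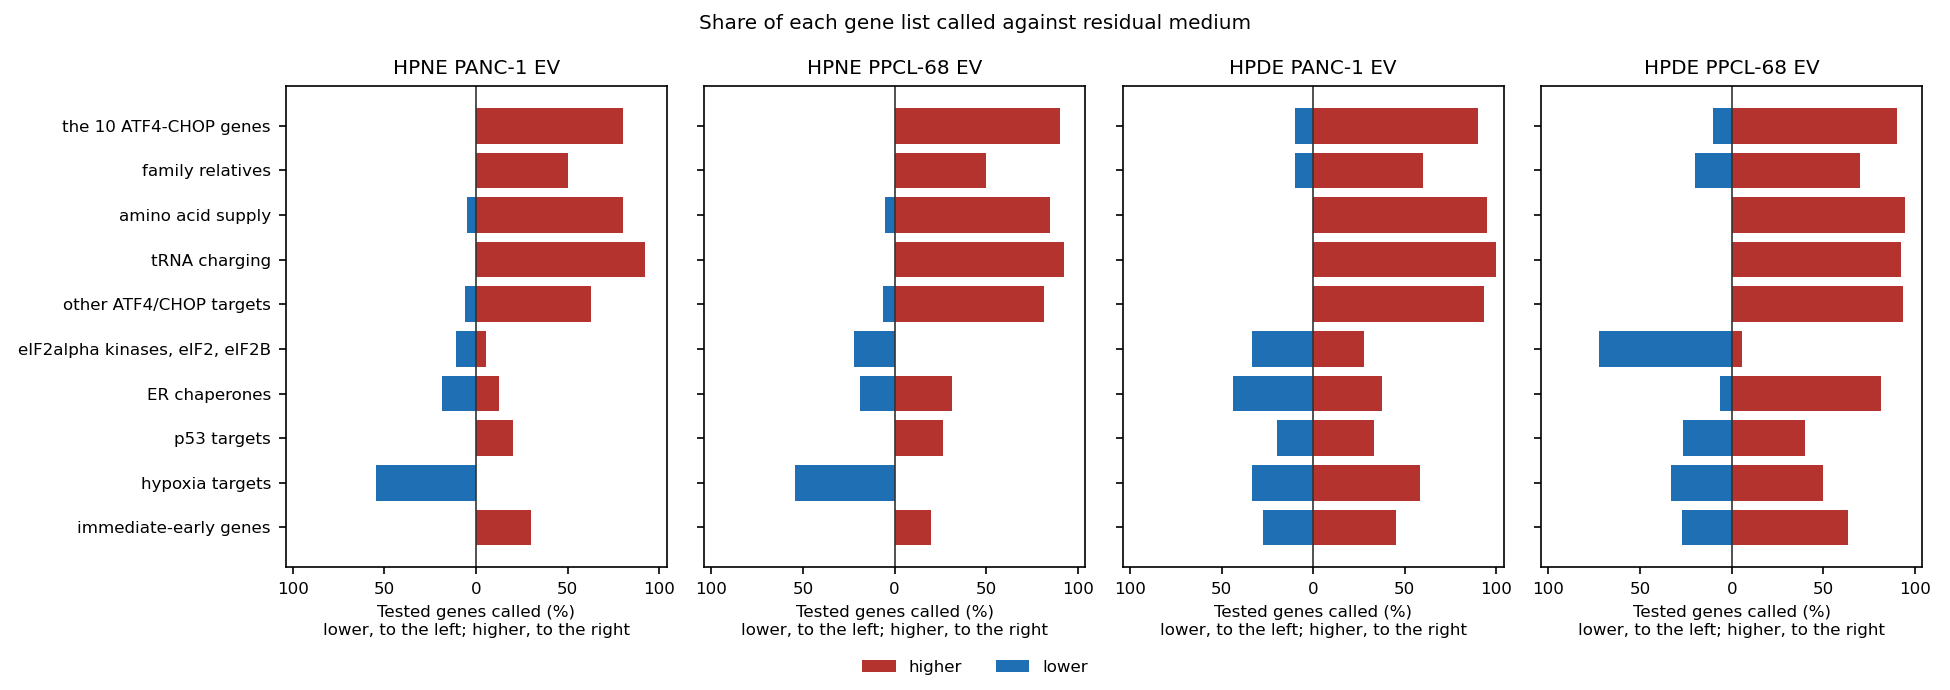
Share of the tested genes of each list called higher (to the right) or lower (to the left) than in residual medium, for each line and vesicle source. The amino acid supply, tRNA charging and further target lists lie almost wholly to the right, as do the 10 genes, while the eIF2alpha kinase list has 13 of 18 genes to the left in HPDE with PPCL-68 EV.

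Outside the 10, the genes whose level followed theirs most closely were ranked by Pearson's r with the mean of the members' standardised levels over the 12 libraries of each line, taking the smaller of the 2 values. Of 10473 genes the first 5 were WARS (0.976 in HPNE and 0.984 in HPDE), ZFAND3 (0.973 and 0.994), MARS (0.967 and 0.988), YARS (0.965 and 0.989) and SARS (0.963 and 0.987). All but ZFAND3 encode tRNA-charging enzymes and stand on that list. MARS overlaps DDIT3 on the other strand, and how reads in the overlap were counted is not stated. The points share treatments and the libraries apart, so these values describe likeness only. Among the members, r with the mean that includes them ran from 0.783 (DDIT4) to 0.969 (TRIB3) in HPNE and from 0.917 (DDIT4) to 0.998 (PPP1R15A) in HPDE for all but ATF5, which had 0.210 and -0.726.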

How the data were processed

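Gene-level FPKM values (reads scaled to gene length and library total) of 24 libraries, 3 in each of 8 groups, were used as deposited by the authors. CASAVA, STAR, HTSeq, DESeq2 and the build hg19 are named in the submitters' processing notes; their roles and versions are not given in the sources used here. Multiplying each FPKM by gene length and scaling gave whole reads, within 0.05 reads or 1e-07 of the count, for 100% of values above 0, which gave the read totals. The library kit kept no strand.

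Values were tested as log2(FPKM + 1), so differences of low genes are understated, in limma 3.58.1 (R 4.3.3, lmFit and eBayes with trend). Each line was fitted with its 12 libraries (8 residual degrees of freedom) and genes with a mean of at least 1 FPKM; differences between lines used all 24 libraries (16 degrees). P-values were Benjamini-Hochberg adjusted over all genes tested, with a threshold of 0.05. The fit was tested on simulated counts drawn independently for each library. These held no libraries that stood apart and no shared deviations, so that test does not cover these features of HPNE. Alternatives were size factors, a pseudocount of 0.1, no filter, limma-voom on recovered reads, a replicate block, library weights, only the 6 libraries compared, each library left out, and the 4 HPNE libraries that stood apart left out, a set picked because they lay far from the others. Named list genes are the highest and lowest of each list in each vesicle comparison. The members and gene lists were chosen with earlier results of these data known.

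Same-numbered libraries deviated together in every pair only for the 2 vesicle groups of HPNE (correlation 0.49, pairs from 0.292 to 0.566). No label ties the numbers to a shared culture or day. Tables, figures and motif searches used Python 3.11.15 with pandas 2.3.3, numpy 2.4.6 and matplotlib 3.10.9, and RefSeq promoters of GRCh38.p14, matched by symbol.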

Additional observations from a re-analysis of the deposited data

Results flagged for a closer look

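The effect of a treatment differed between the lines for 4 results by the interaction test in limma (HPDE minus HPNE, log2). For PPCL-68 EV against residual medium, ATF3 differed by -1.13, where 23% of all genes were called. For residual medium against untreated cells, CEBPB differed by 0.86, SESN2 by 0.82 and ATF4 by 0.57, where 38.1% of all genes were called. The 10 genes were thus not called more often than all genes. The ATF3 and CEBPB calls were kept in 31 of 31 alternatives and the SESN2 call in 30, while the ATF4 call was kept in 18 and was lost with size factors, no filter or the replicate block (adjusted p = 0.0517 for the last), and without any 1 of 10 single libraries.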

How the results depend on the processing

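Of 99 calls on the 10 genes, 0 reversed in 2060 alternatives and 172 of these lost the call. For the 37 calls of vesicles against residual medium, 689 of 720 alternatives kept the call, 31 lost it and 0 reversed it. The number of the 10 genes called moved most in HPNE between the 2 sources and for residual medium against untreated cells, and in the differences in response between the lines. The cause was not tested. For PANC-1 EV against PPCL-68 EV in HPNE it was 1, and 0 with size factors, no filter, the replicate block or only the 6 libraries, 2 with library weights, 5 without the 4 libraries apart, and 0 to 2 with single libraries left out. For residual medium against untreated cells in HPNE it was 4, and 1 with size factors, the replicate block or only the 6 libraries, 0 with no filter, 7 with library weights or without the 4 libraries apart, and 0 to 6 with single libraries left out. In HPDE that comparison gave 7, and 4 with no filter and 4 to 7 with single libraries left out. PPCL-68 EV against untreated HPNE cells gave 7, and 4 to 7. The line differences gave 0 (PANC-1 EV), 1 (PPCL-68 EV) and 3 (residual medium against untreated), and 7, 7 and 9 both with library weights and without the 4 libraries apart, with ranges of 0 to 4, 1 to 4 and 1 to 8 with single libraries left out. With library weights 61%, 51.2% and 70.6% of all genes were called in the line differences, 77.5% in residual medium against untreated HPNE cells and 23.5% between the sources in HPNE. Reversals of sign were among values that had not passed. DDIT4 with PANC-1 EV against untreated HPNE cells was 0.01 with size factors and -0.26 to 0.08 with single libraries left out. The line difference with PANC-1 EV was -0.03 (voom), -0.55 (library weights) and -0.47 (without the 4) for CHAC1, and -0.36 (library weights) and -0.45 (without the 4) for DDIT4. With PPCL-68 EV it was -0.50 (library weights) and -0.47 (without the 4) for CHAC1, and -0.02 (pseudocount 0.1), -0.05 (voom), -0.42 (library weights) and -0.45 (without the 4) for SESN2. With single libraries left out, the line difference with PANC-1 EV ran from -0.42 to 0.02 for ATF4, -0.38 to 0.36 for CHAC1, -0.47 to 0.43 for DDIT4 and -0.42 to 0.08 for SESN2. With PPCL-68 EV it ran from -0.30 to 0.44 for CHAC1, -0.88 to 0.03 for DDIT4 and -0.32 to 0.18 for SESN2, and for residual medium against untreated from -0.17 to 0.56 for CHAC1. In HPNE, DDIT3 between the sources ran from -0.19 to 0.32, and ATF5 against residual medium from -0.22 to 0.06 (PANC-1 EV) and -0.22 to 0.13 (PPCL-68 EV). With the replicate block, single calls in HPNE were lost for ATF4 (0.0712) with PANC-1 EV and DDIT4 (0.0573) with PPCL-68 EV against residual medium and for TRIB3 (0.0675) with PANC-1 EV against untreated cells.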
